A study of Mus musculus with 17 samples.

Results

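A group of 10 genes of the choroid plexus epithelium was followed through 17 libraries of isolated mouse brain microvessels: Ttr, Folr1, Kl, Enpp2, Aqp1, Clic6, Kcnj13, Kcne2, Slc4a5 and Otx2. The genes were selected on the level of Ttr, after it was seen to vary widely between these same libraries, and they are 10 of the 42687 genes in the count table. All 10 passed the filter on low counts and are among the 18753 genes tested. Because the choice rests on variation between libraries, that variation and the way the genes move together are given below as a description, with no p-value.

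The mice were wild type (WT) or APP/PS1, an amyloid model of Alzheimer's disease that carries transgenes for mutant human amyloid precursor protein and presenilin, and all were 10 to 11 months of age. They were given gp91-ds-tat, a peptide inhibitor of the superoxide-producing oxidase NOX2, or the control peptide sgp91-ds-tat, intraperitoneally at 10 mg/kg once in 2 days over 2 weeks. With the labels' names NOX2 and SC for inhibitor and control, there were 5 libraries of WT_SC, 5 of WT_NOX2, 2 of APP_SC and 5 of APP_NOX2. The microvessels came from cortex, by centrifugation through dextran, and the labels describe them as endothelium, pericytes and astrocyte endfeet, with no mention of choroid plexus. Nothing in the labels says that each library is a separate mouse, so p-values measure the spread between these libraries only.

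The choroid plexus is a fold of vascular tissue in the brain ventricles, covered by a single layer of epithelium that secretes cerebrospinal fluid. Its epithelium makes large amounts of transthyretin, carries folate, bicarbonate, chloride, potassium and water across the cell layer, and sits on capillaries with fenestrated walls. The cortex itself holds no choroid plexus. Otx2 encodes a homeodomain transcription factor needed for the development and upkeep of this epithelium, and homeodomain proteins of its class bind the motif TAATCC.

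Because the 10 genes moved together, the bases just before a transcript start are shown for 4 of them, with matches to the motifs in capitals. Sequences are from the RefSeq promoter windows of GRCm38.p6, 250 bases before a transcript start, 5′ to 3′ on the strand of the gene. Of the 10 genes, 6 matched the table, with 10 windows, and no entry was used for Ttr, Folr1, Enpp2 and Clic6. The windows below are chr1:87394730-87394979 (minus strand) for Kcnj13, chr5:150952357-150952606 (plus) for Kl, chr14:48667645-48667894 (minus) for the most upstream of 4 starts of Otx2, and chr16:92292139-92292388 (plus) for the first of 2 starts of Kcne2. No annotated exon overlaps these windows. The 4 starts of Otx2 are those of the RefSeq windows, and all lie inside the longer GENCODE model of the gene, chr14:48657677-48673819.
Kcnj13: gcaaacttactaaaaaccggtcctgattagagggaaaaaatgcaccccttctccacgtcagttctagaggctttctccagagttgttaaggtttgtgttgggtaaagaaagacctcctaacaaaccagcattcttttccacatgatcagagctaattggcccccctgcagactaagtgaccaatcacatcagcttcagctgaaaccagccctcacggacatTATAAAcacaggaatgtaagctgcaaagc
Kl: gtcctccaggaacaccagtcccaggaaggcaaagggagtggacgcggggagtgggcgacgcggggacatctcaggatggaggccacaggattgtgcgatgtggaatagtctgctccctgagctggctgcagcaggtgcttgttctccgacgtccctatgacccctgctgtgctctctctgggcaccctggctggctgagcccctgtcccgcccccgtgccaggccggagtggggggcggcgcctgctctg
Otx2: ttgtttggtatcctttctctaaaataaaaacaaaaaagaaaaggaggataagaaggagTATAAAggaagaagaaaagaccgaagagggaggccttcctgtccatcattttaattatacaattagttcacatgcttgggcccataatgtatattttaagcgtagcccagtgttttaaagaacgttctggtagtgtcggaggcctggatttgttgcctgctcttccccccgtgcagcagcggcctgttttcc
Kcne2: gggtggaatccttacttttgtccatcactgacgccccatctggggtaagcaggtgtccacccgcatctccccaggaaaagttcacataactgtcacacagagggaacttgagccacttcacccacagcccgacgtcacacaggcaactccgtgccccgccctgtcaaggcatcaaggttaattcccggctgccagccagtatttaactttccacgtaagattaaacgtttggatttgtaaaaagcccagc

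The windows were searched on both strands for TAATCC, the motif of homeodomain proteins of the Otx class. They were also searched for TATAAA, a usual form of the box that places the start of transcription in many genes, and no window of a member held both motifs. The first motif was found in 1 of the 10 member windows, before the third start of Otx2, beginning 211 bases before that start, at chr14:48665303-48665332 (minus strand), shown here as 30 bases with the match, on the opposite strand, in capitals.
Otx2 site: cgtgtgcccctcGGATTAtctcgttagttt
Annotated exons overlap the Otx2 window that holds this match. Of all 32851 windows, 6.25% held TAATCC, and of 35 windows of other choroid plexus genes 3 did (8.57%). The 10 member windows come from 6 genes, and the first and second windows of Otx2 share bases. They are therefore not 10 separate promoters. TATAAA was found in 3 member windows: 29 bases before the start in Kcnj13, 127 in Slc4a5 and 192 in Otx2. The match in Slc4a5 is on the opposite strand, in a window that 1 annotated exon overlaps. That window lies inside the GENCODE model of Slc4a5. The share of all windows with TATAAA was 12.4%, and it was 8.57% in the windows of other choroid plexus genes. A match is a string of letters and not a measured site, and windows without one say nothing of the factor.

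Total counts were 7316503 to 17862965 per library, with a median of 11342154. The rank correlation of Ttr with total counts was -0.262, and with the share of counts in a pair of ribosomal RNA-linked genes (4.76% to 16.0%) it was -0.186. Markers of the labelled cell types were present in every library: 7 brain endothelial genes summed to between 2407 and 4562 CPM (counts scaled to TMM-adjusted library sizes, in the usual unit of CPM), 6 pericyte genes to between 950 and 1643 CPM and 6 astrocyte genes to between 2952 and 5092 CPM. A list of 6 neuronal genes also reached 2474 to 4162 CPM.

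A set of 8 libraries stood apart by holding reads of both Xist, transcribed from the inactive X chromosome of females, and 4 genes of the Y chromosome, which was noticed after the data were seen. They are WT_SC replicates 2, 3 and 5, WT_NOX2 replicate 3, APP_SC replicate 2 and APP_NOX2 replicates 2, 3 and 5. Of the 17 libraries, 10 had Xist at 5614 to 10170 CPM, and 4 of these also had the Y-linked genes at 5.57 CPM or more in sum, up to 22.6 CPM. In the other 7 the Y-linked sum was 294 to 355 CPM, and Xist was 123 to 668 CPM in 4 of them and 13.5 to 48.0 CPM in 3. Ttr was 138 to 3805 CPM in the 8 libraries (median 465, 5 of them among the 7 lowest) and 10.5 to 7381 CPM in the other 9 (median 2727). The part of these libraries in the results was not tested, and values without them are given below for the co-variation, the proportions, the gene lists and the 3 comparisons.

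Ttr encodes transthyretin, which carries thyroid hormone and the retinol-binding protein and is the main secreted product of the choroid plexus. In WT_SC, Ttr was 10.5, 138, 3805, 7381 and 1969 CPM in replicates 1 to 5. In WT_NOX2 it was 2706, 188, 198, 3281 and 4266 CPM. Each of these groups held both the high and the low libraries, and WT_SC held the lowest and the highest of all 17. In APP_SC, Ttr was 1710 and 163 CPM in the 2 replicates. In APP_NOX2 it was 2727, 1960, 401, 4323 and 528.5 CPM. All 4 groups overlapped, and the range inside WT_SC contained every value of the other groups.

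The mean of Ttr was 2661 CPM ± 3060 (SD, n = 5) in WT_SC, 2128 ± 1852 (n = 5) in WT_NOX2, 937 ± 1094 (n = 2) in APP_SC and 1988 ± 1632 (n = 5) in APP_NOX2. The SD was thus near or above the mean in each group. The ratio of the highest library to the lowest was 701, and on the log2 scale this range ranked 3 among the 18753 genes tested, behind Xist and the Y-linked Eif2s3y. In WT_SC replicate 1, Ttr rested on 182 counts, or 0.00102% of the library (95% Wilson interval 0.000881% to 0.00118%), and in WT_SC replicate 4 on 82629 counts, or 0.729% (0.724% to 0.733%). These intervals cover counting error only.

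**Figure D1:**
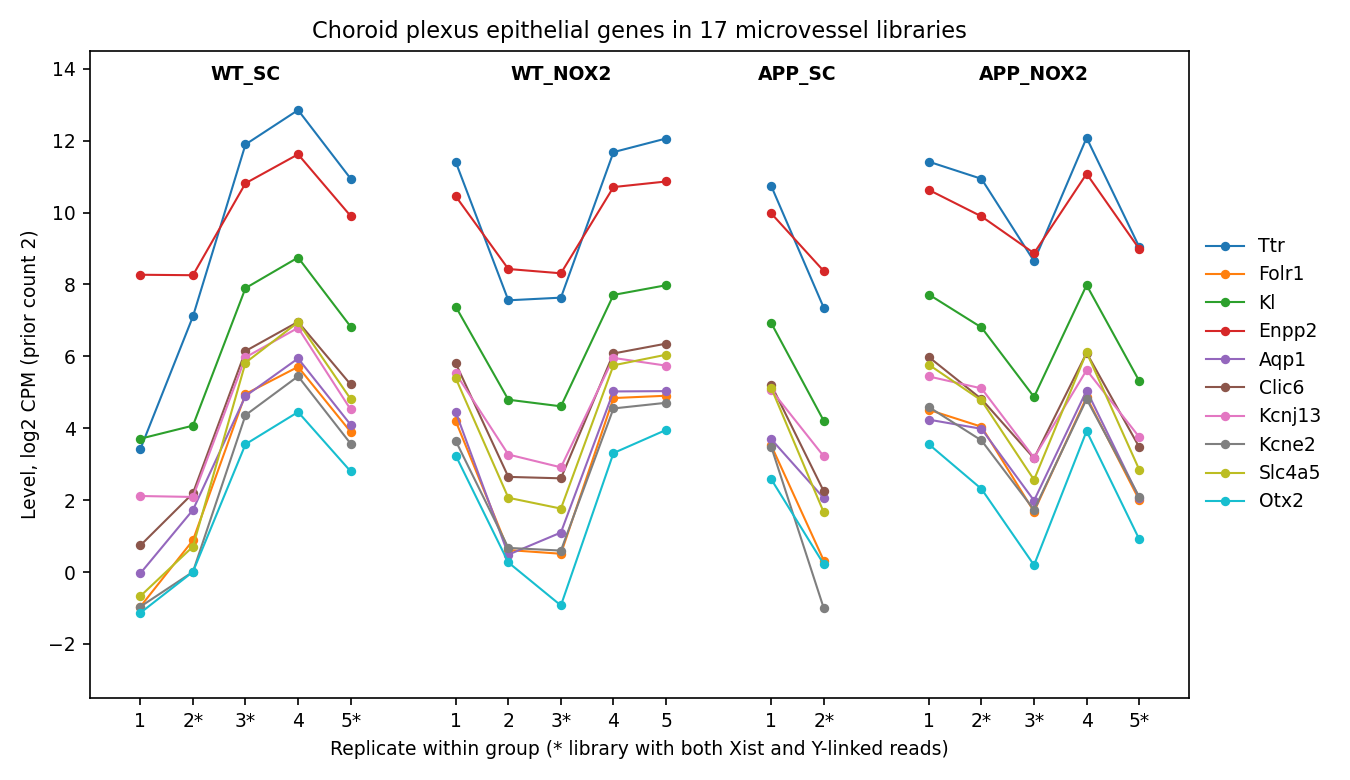
Level of each of the 10 genes (log2 CPM, prior count 2, vertical axis) in each library (horizontal axis, replicates within the 4 groups), with 1 line per gene and group and a star for libraries that hold both Xist and Y-linked reads. Lines join replicates only to guide the eye, since replicates have no order; the genes go up and down together, with WT_SC replicate 4 highest for all 10.

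Folr1 encodes folate receptor alpha, which takes folate from the blood side of the choroid plexus to the cerebrospinal fluid. Its level was 0.347, 1.68, 30.8, 52.1 and 14.8 CPM in WT_SC, and 18.1, 1.36, 1.26, 28.5 and 29.8 CPM in WT_NOX2. It was 11.3 and 1.08 CPM in APP_SC, and 22.6, 16.3, 3.04, 28.9 and 3.85 CPM in APP_NOX2. The libraries that were high for Ttr were the high ones for Folr1, and its range was 150-fold, with as few as 6 counts in WT_SC replicate 1.

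Enpp2 encodes autotaxin, a secreted enzyme that makes the lipid signal lysophosphatidic acid, and it is known from oligodendrocytes as well as from choroid plexus. Its level was 308, 305.5, 1800.0, 3146 and 958 CPM in WT_SC, and 1400.0, 344.5, 317, 1673 and 1862 CPM in WT_NOX2. It was 1008 and 331 CPM in APP_SC, and 1582, 950.3, 467, 2162 and 508 CPM in APP_NOX2. The order of the libraries was near that of Ttr, but the range of Enpp2 was 10.3-fold, the smallest of the 10 genes, and no library fell below 305.5 CPM.

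Kl encodes klotho, the co-receptor of the hormone FGF23, which is also shed into the cerebrospinal fluid. Kl was 12.9, 16.7, 238, 430 and 113 CPM in WT_SC, with a range over all libraries of 33.3-fold. Its ranges were 24.2 to 252 CPM in WT_NOX2, 18.3 to 121.5 CPM in APP_SC and 29.1 to 252 CPM in APP_NOX2, so that the groups overlapped.

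The genes of ion and water transport followed the same libraries. Slc4a5, the sodium bicarbonate cotransporter NBCe2 of the ventricular face of the epithelium, was 0.463, 1.47, 56.4, 123 and 27.9 CPM in WT_SC. It was 41.7, 4.02, 3.23, 53.7 and 65.8 CPM in WT_NOX2, 34.6 and 2.99 CPM in APP_SC, and 54.2, 27.2, 5.75, 68.9 and 7.05 CPM in APP_NOX2. With 266-fold between its extremes, Slc4a5 had the widest range of the members after Ttr. Its lowest library, WT_SC replicate 1, held 8 counts, so that this range is imprecise. Aqp1, the water channel of that face, ranged from 0.810 to 61.3 CPM, and Kcnj13, the inward rectifier potassium channel Kir7.1, from 4.09 to 111 CPM. Kcne2, a regulatory subunit of potassium channels, ranged from 0.333 to 43.4 CPM, and Clic6, of the chloride intracellular channel family, from 1.50 to 124 CPM. The highest library was WT_SC replicate 4 for each of them, and the groups overlapped in each case.

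Otx2 was the least abundant of the 10, at 0.289, 0.838, 11.6, 21.7 and 6.80 CPM in WT_SC and 9.26, 1.04, 0.359, 9.75 and 15.3 CPM in WT_NOX2. It was 5.82 and 0.998 CPM in APP_SC and 11.6, 4.80, 0.977, 15.0 and 1.72 CPM in APP_NOX2. Its low values rested on 4 counts at the fewest, and its 75.1-fold range is imprecise for that reason. The gene for the regulator thus varied over the same libraries as the genes for carriers and channels.

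Per kilobase of exon, Ttr had a median of 1653 CPM per kb over the libraries, Enpp2 166, Kcnj13 26.2 and Kl 12.1. Clic6 followed at 9.41 CPM per kb, Kcne2 at 6.63, Folr1 at 6.42, Aqp1 at 5.96, Slc4a5 at 4.81 and Otx2 at 1.38. The order of Kcne2, Folr1 and Aqp1 was decided by differences far below the spread of each over libraries. Of the genes tested, 0.0321% had a median level per kb as high as Ttr, 0.220% as high as Enpp2 and 77.7% as high as Otx2.

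In the GENCODE annotation of GRCm38, Ttr lies at chr18:20665280-20674321, Folr1 at chr7:101858331-101870788 and Kl at chr5:150952607-150993817. Enpp2 lies at chr15:54838901-54952892, Aqp1 at chr6:55336432-55348555, Slc4a5 at chr6:83219828-83304945 and Otx2 at chr14:48657677-48673819. Kcnj13 is at chr1:87386363-87394729, and Kcne2 and Clic6 are both on chromosome 16, at chr16:92292389-92298129 and chr16:92485736-92541243. The remaining members lie on different chromosomes, apart from the pair on chromosome 6. The model of Kcnj13 overlaps Gigyf2, which is on the opposite strand and had 937 to 2336 counts per library. Opposite-strand models also overlap Folr1 (Anapc15, 51 to 157 counts), Otx2 (Otx2os1, 0 to 17) and Enpp2 (Gm26684, 0 to 17), and a model on the same strand overlaps Clic6 (2410124H12Rik, 0 to 2). The kit was stranded, but the strand setting of the counting is not given in the sources used here, so reads of such pairs may have been shared.

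The libraries were ordered almost alike by all 10 genes. The same 10 libraries were the highest for every member: 3 of WT_SC, 3 of WT_NOX2, 1 of APP_SC and 3 of APP_NOX2. These were the libraries with Ttr at 1710 CPM or above, while the other 7 had Ttr at 528.5 CPM or below. This gap, 1.69 on the log2 scale, is the widest that leaves at least 6 libraries on each side, and a wider one, of 3.69, sets WT_SC replicate 1 apart from the rest. WT_SC replicate 1 was the lowest library for 7 of the 10 genes. In tissue pooled from many cells, a smaller number of choroid plexus cells and less RNA per cell cannot be told apart.

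Of the other 9 members, Slc4a5 followed Ttr most closely, with a Pearson correlation of log2 CPM of 0.984 over the 17 libraries (Spearman 0.988). Clic6 followed at 0.980 (0.988), Folr1 at 0.975 (0.971), Kcne2 at 0.955 (0.973) and Aqp1 at 0.952 (0.968). Kl was at 0.951 (0.988), Otx2 at 0.946 (0.966), Kcnj13 at 0.941 (0.946) and Enpp2 at 0.919 (0.983). The values share each library's depth and scaling, and the members were chosen knowing that they vary. Over all 45 pairs of members the Pearson correlation was 0.919 to 0.994, with a median of 0.973, and Kl and Slc4a5 placed the 17 libraries in one and the same order. Over all genes tested, the median correlation with Ttr was -0.0021, and 58 genes (0.309%) reached 0.9.

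The pattern did not rest on the 2 libraries lowest in Ttr. Without WT_SC replicates 1 and 2, which lay farthest from the median of Ttr, the 9 correlations were 0.969 to 0.998. That setting keeps WT_SC replicate 4, the highest. With any 1 library left out they were 0.9125 (Enpp2) to 0.9935 (Folr1). Within the 10 libraries above the gap in Ttr they were 0.901 (Kcnj13) to 0.980 (Enpp2), and within the 7 libraries below it 0.665 (Enpp2) to 0.984 (Clic6). For every member but Clic6 the correlation was lower below the gap than above it. Both settings keep an extreme library: WT_SC replicate 4 above the gap and WT_SC replicate 1 below it. Without the 8 libraries that hold both Xist and Y-linked reads they were 0.932 to 0.997 over 9 libraries. This last setting keeps the lowest and the highest library of Ttr and only 2 libraries below the gap. It therefore cannot bear on the extreme libraries.

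The proportions among the genes were steady where Ttr was high. In the 10 libraries above the gap, Folr1 gave 6.63 to 8.67 counts per 1000 counts of Ttr, Aqp1 6.86 to 9.86 and Slc4a5 13.9 to 20.3. Kl gave 56.9 to 77.1 counts per 1000 counts of Ttr and Enpp2 gave 426 to 589, and the range of each of these 5 was 1.31-fold (Folr1) to 1.46-fold (Slc4a5) while Ttr itself ran from 1710 to 7381 CPM. Kcne2 lay at 4.56 to 8.76 counts per 1000 counts of Ttr, Otx2 at 2.45 to 4.24, Kcnj13 at 11.3 to 19.5 and Clic6 at 14.2 to 23.1. The ratio of highest to lowest was widest for Kcne2 (1.92), while the coefficient of variation was highest for Kcnj13 (18.7%, against 17.5% for Kcne2). Without the 8 libraries with both marks, 7 libraries remained above the gap, and the ratio of highest to lowest was 1.31 (Folr1) to 1.92 (Kcne2).

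Where Ttr was low, the proportions were different for some genes. In the 7 libraries below the gap, Enpp2 gave 962 to 29290 counts per 1000 counts of Ttr and Kcnj13 22.2 to 396. Both lay above every library with high Ttr, while the ranges of the other genes overlapped. The shift was largest in WT_SC replicate 1, where Ttr was lowest. Per 1000 counts of Ttr that library had 29290 counts of Enpp2, 1225 of Kl, 396 of Kcnj13, 143 of Clic6 and 33.0 of Folr1. The value of Folr1 rests on 6 counts. Its members together made 0.0329% of all counts, of which Enpp2 was 90.8% and Ttr 3.10%, while in WT_SC replicate 4 they made 1.13% of all counts, of which Ttr was 64.2% and Enpp2 27.4%. A level of Enpp2 thus remained in the library with the least Ttr.

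A straight line on the CPM scale described this remaining level. For Enpp2 the line met zero Ttr at 285 CPM ± 32.8 (SE), which is 29.8% of the median of Enpp2, with an R² of 0.988 over 17 libraries. The intercept was 12.8 CPM ± 4.56 for Kl (11.3% of its median) and 5.05 ± 2.37 for Kcnj13 (15.2%). For Folr1 (0.547 ± 0.675 CPM), Aqp1 (0.523 ± 0.759), Kcne2 (0.565 ± 0.878), Otx2 (0.379 ± 0.399), Slc4a5 (-0.252 ± 1.43) and Clic6 (3.57 ± 2.07) the intercept was less than 2 SE from zero. The slopes were 399 CPM of Enpp2, 57.4 of Kl, 17.2 of Clic6, 16.3 of Slc4a5 and 13.6 of Kcnj13 per 1000 CPM of Ttr. Over the 9 libraries without both Xist and Y-linked reads the intercept was 349 CPM ± 62.3 for Enpp2 and 22.8 ± 8.85 for Kl, and those of the other 7 genes, Kcnj13 included (6.55 ± 4.96), were less than 2 SE from zero. Such a line gives most weight to the high libraries and is a description, not a test.

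**Figure D2:**
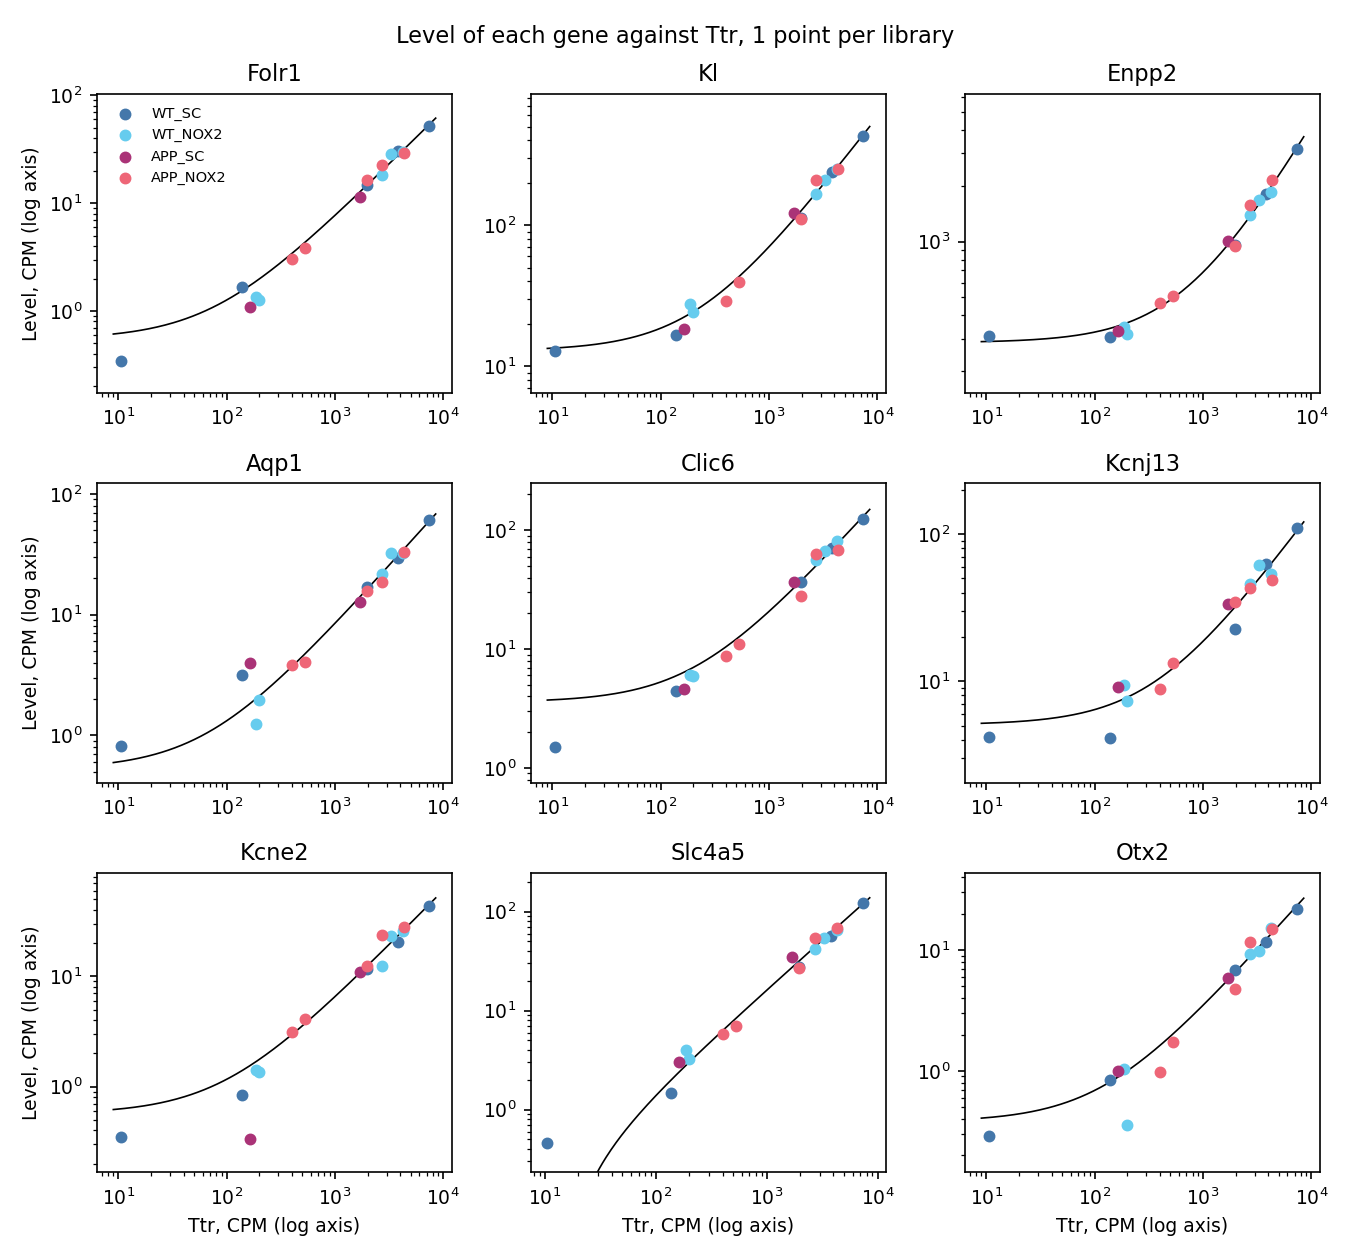
Level of each of 9 genes (CPM, log axis) against Ttr (CPM, log axis), 1 point per library coloured by group, with the straight line fitted on the CPM scale, which bends on log axes where it has an intercept. Points of all 4 groups lie along each line; Enpp2 does not go below 305.5 CPM at low Ttr, while Slc4a5 keeps falling.

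Among genes outside the 10, those most like Ttr over the libraries were Mfrp (Pearson 0.991), Tmem72 (0.989), 1500015O10Rik (0.975), Steap1 (0.972) and Car12 (0.957). They were followed by Oca2 (0.953), Prr32 (0.948), Cldn2 (0.946), Pla2g5 (0.942) and Prlr (0.942). All but Oca2, Prr32 and Pla2g5 were in a list of 32 other choroid plexus genes. That list was drawn up with earlier results of these data known, so membership in it is no independent evidence. Cldn2 encodes a pore-forming claudin of leaky epithelia, Car12 a membrane carbonic anhydrase and Prlr the prolactin receptor. The correlations of these 10 genes were 0.956 to 0.997 without the 8 libraries. Mfrp ran from 0.231 to 128 CPM, Tmem72 from 0.926 to 269 CPM and Prlr from 7.46 to 294 CPM.

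All 32 of those other choroid plexus genes passed the filter, and their median correlation with Ttr was 0.904, with 18 genes at 0.9 or more and 29 at 0.7 or more. Their summed level was 613 to 883.5 CPM in the 7 libraries with low Ttr and 1266 to 3421 CPM in the 10 with high Ttr, with no overlap. The median correlation was 0.930 without the 8 libraries, and the summed level was 627 to 706 CPM in the 2 libraries left below the gap and 1373 to 3421 CPM in the 7 above it. The most abundant were Trpm3, a cation channel (108 to 555 CPM, correlation 0.876), Slc12a2, the cotransporter NKCC1 (139 to 317 CPM, 0.801), the serotonin receptor gene Htr2c (49.1 to 180.0 CPM, 0.845) and Prlr. The lowest correlations in the list, looked up after the values were seen, were those of Car14 (0.422), Slc13a4 (0.532) and Igfbp2 (0.667), which are also known from other cells of the brain or meninges.

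Markers of the tissue around the choroid epithelium were less uniform. Plvap and Esm1, markers of fenestrated capillaries, had correlations with Ttr of 0.830 and 0.814, with Plvap at 2.10 to 10.8 CPM and Esm1 at 0 to 1.70 CPM. Of 12 genes of ependymal cells, which line the ventricles, 11 passed the filter, with a median correlation of 0.457. Foxj1, the regulator of motile cilia, was at 0.802 (3.32 to 14.7 CPM), Hydin, of the ciliary axoneme, at 0.627, Ak7 at 0.457 and Rarres2 at 0.334. In the same list Enkur (0.051), Tmem212 (-0.025), Ccdc153 (-0.113) and Spag17 (-0.201), picked out after their values were seen, did not follow Ttr. The remaining genes of the list went the other way: Tekt1 was at 0.853, Dynlrb2 at 0.790 and Cfap126 at 0.512. The summed ependymal level was 21.5 to 37.9 CPM in libraries with low Ttr and 33.3 to 53.3 CPM in those with high Ttr, and thus overlapped. For the fenestrated capillary genes the median correlation was 0.816 without the 8 libraries, and for the ependymal genes 0.455.

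Of 11 meningeal fibroblast genes the median correlation with Ttr was 0.148 (0.365 without the 8 libraries), and their sum was 1097 to 3412 CPM in libraries with low Ttr and 1256 to 3219 CPM in those with high Ttr. Ptgds, the prostaglandin D synthase, was at -0.283, Igf2 at 0.146, the collagen gene Col1a2 at 0.245 and Dcn, encoding decorin, at 0.086. The medians of the lists for the labelled cells were 0.073 for brain endothelium, -0.028 for pericytes and -0.165 for astrocytes. For oligodendrocytes the median was -0.112, for microglia -0.118 and for neurons -0.494. These medians became, without the 8 libraries, 0.043, -0.053, -0.157, -0.216, -0.073 and -0.603, in the same order. The summed neuronal level was 2922 to 4162 CPM in libraries with low Ttr and 2474 to 3940 CPM in those with high Ttr.

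Lists for brain regions near the ventricles gave medians of -0.445 for hippocampus (5 genes), 0.001 for striatum (7) and -0.005 for thalamus (4), and -0.456, 0.093 and -0.277 without the 8 libraries. Within them Dsp, which encodes desmoplakin of cell junctions, was at 0.837 (5.55 to 31.6 CPM), while the hippocampal Wfs1 was at -0.575 and Prox1 at -0.453. In the striatal list Ppp1r1b was at 0.782 (27.8 to 61.0 CPM), while Penk was at -0.295 and Rgs9 at 0.355. Dsp and Ppp1r1b thus stood apart from the other genes named from their lists.

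A further list held 26 genes that work with the members: receptors, partners and relatives. All 26 were tested, and their median correlation with Ttr was 0.071, with none at 0.7 or above. The median was 0.160 without the 8 libraries, and 4 of the 26 were at 0.7 or above. The most abundant were Slc4a10 (0.241), Slc4a4 (-0.303), Thra (-0.615), which encodes a thyroid hormone receptor, and Slc5a3 (0.659). Slc46a1, the proton-coupled folate transporter, was at 0.591, and Stra6, the receptor for the retinol-binding protein, at 0.390. Kcnq1, a channel that assembles with the Kcne2 product, was at 0.308, and Fgf23 at -0.135. Slc46a1, Stra6, Kcnq1 and Fgf23 were picked out for their known relation to a member after the values were seen. None of the 26 was called in any of the 3 comparisons below: 17 had a positive and 9 a negative log2 change for genotype, with a median of 0.055, against a median of 0.0017 over all genes.

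**Figure D3:**
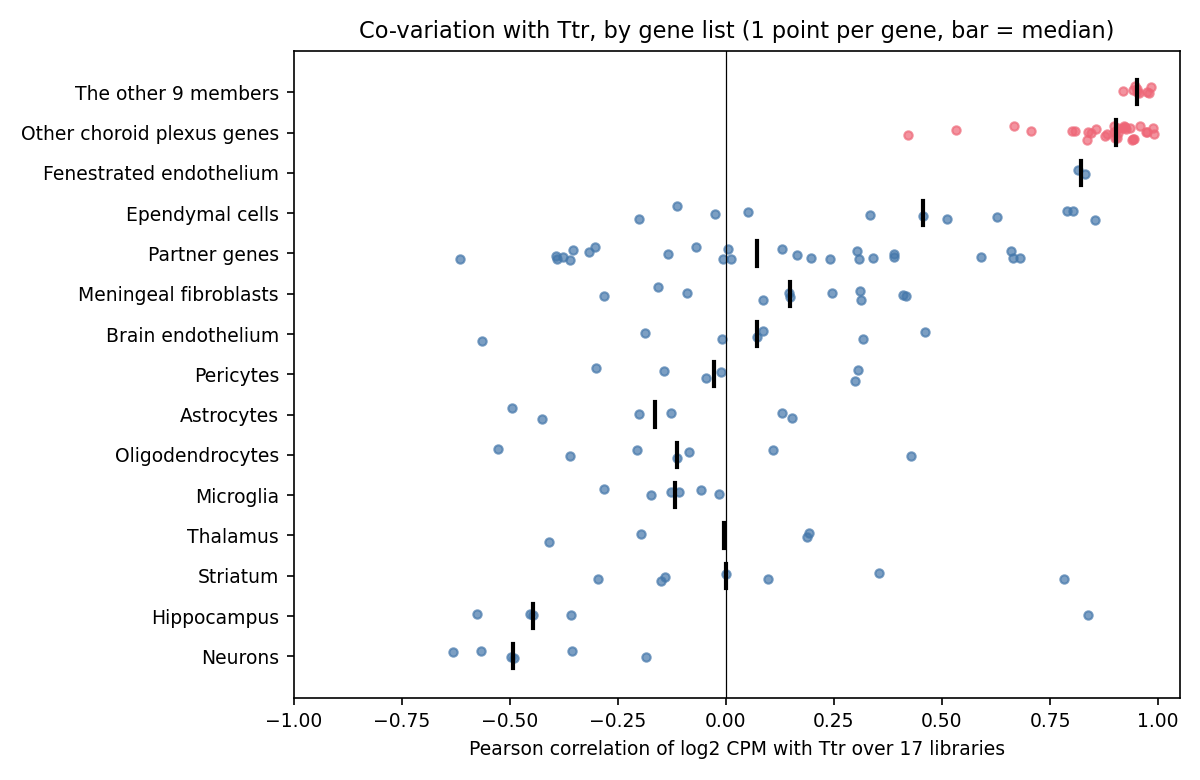
Pearson correlation of log2 CPM with Ttr over 17 libraries (horizontal axis) for the genes of each list (vertical axis), with 1 point per gene and a bar at the median. The other 9 members and the 32 other choroid plexus genes sit at the right (medians 0.952 and 0.904, with Ttr itself left out), fenestrated endothelium and some ependymal genes lie between them and zero, and the lists for brain endothelium, pericytes, glia and neurons have medians between 0.073 and -0.494.

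The first comparison asked how APP/PS1 differed from WT, over both peptides. Not one of the 10 genes was called different. With edgeR's quasi-likelihood test and Benjamini-Hochberg adjustment, 110 of 18753 genes (0.587%) passed an adjusted p of 0.05 for genotype, and 0 of 10 members did. At an unadjusted p under 0.05 in edgeR there were 1197 genes (6.38%) and 0 members. With DESeq2, 175 genes passed and 0 members. All 10 fitted log2 changes were below zero, with a median of -0.47, but they come from the same libraries and do not count as 10 observations. The fitted change of Ttr in APP/PS1 was -0.56 ± 0.94 (SE), with a 95% interval of -2.53 to 1.41 and an adjusted p of 0.992 by edgeR's quasi-likelihood test. The interval allows anything from 0.173 to 2.65 times the WT level.

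The interval was narrowest for Enpp2, at -0.31 with limits of -1.42 and 0.79, and the largest estimate was that of Aqp1, at -0.62 with limits of -2.14 and 0.91. Folr1 was at -0.56, Kl at -0.45, Clic6 at -0.57, Kcnj13 at -0.48, Kcne2 at -0.32, Slc4a5 at -0.40 and Otx2 at -0.42, all with intervals across zero. On mean log2 CPM each library counts alike, and the peptide was not adjusted for, while the edgeR fit adjusts for it. Ttr was there instead higher in APP/PS1 by 0.376 (10.03 against 9.654, n = 7 and 10), opposite in sign to the edgeR fit. The two-sided exact permutation test gave p = 0.780. With control peptide this mean was lower in APP/PS1 (9.045 in APP_SC, 9.243 in WT_SC). With inhibitor it was higher (10.424 in APP_NOX2, 10.066 in WT_NOX2). The mean of Ttr in CPM, also not adjusted for peptide, was lower in APP/PS1 (1688 against 2394 in WT), as in the edgeR fit. Without WT_SC replicate 1 the difference in mean log2 CPM by genotype was -0.317. Without the 8 libraries that hold both Xist and Y-linked reads, 0 members and 6 genes in all were called by edgeR, and the fitted change was above zero for Kl, Enpp2, Kcne2, Slc4a5 and Otx2. The direction for genotype is thus not settled by these libraries. Among the genes of the other lists, Gfap of astrocytes (log2 change 1.20, adjusted p = 0.000125) and the microglial C1qa, Csf1r, Cx3cr1 and P2ry12 were called higher in APP/PS1 by edgeR's quasi-likelihood test in the fit of all 17 libraries. Without the 8 libraries, which leaves 1 library of APP_SC, the largest log2 change in the astrocyte list was 1.18, with 3 of 6 genes higher. In the microglial list 5 of 6 genes were higher there, with a median log2 change of 0.385. These are sizes and directions only, and they do not show that the calls from 17 libraries held.

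The second comparison was that of inhibitor with control peptide, over both genotypes. No gene of 18753 (0%) and 0 of 10 members passed, by edgeR or by DESeq2. At an unadjusted p under 0.05 in edgeR there were 396 genes (2.11%) and 0 members. The fitted log2 change of Ttr was 0.14 ± 0.94 (SE), with limits of -1.82 and 2.10 and an adjusted p of 0.9999 by edgeR's quasi-likelihood test, and those of the other members were 0.03 (Kcnj13) to 0.24 (Kcne2). On mean log2 CPM, with genotype not adjusted for, Ttr was higher with inhibitor by 1.06 (10.25 against 9.186, n = 10 and 7). The two-sided exact permutation test gave p = 0.420. Over the pair of permutation tests the adjusted p was 0.780 for each. Without the 8 libraries the fitted change was below zero for 6 members, Ttr included, and 0 were called.

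The third comparison asked if the inhibitor effect differed between APP/PS1 and WT. No gene of 18753 (0%) and 0 of 10 members passed by edgeR or DESeq2. In edgeR, 158 genes (0.843%) and 0 members had an unadjusted p under 0.05. The difference of inhibitor effects was 1.41 ± 1.91 (SE) for Ttr, with limits of -2.60 and 5.41, and ranged from 0.69 (Kcnj13) to 1.58 (Folr1) over the members. Without the 8 libraries, which leaves 1 library of APP_SC that is assumed to vary like the other groups, the differences were 0.90 (Kcnj13) to 1.69 (Kcne2), with 1.55 for Ttr, and 0 members were called. Without APP_SC replicate 1 the difference of Ttr was 3.93, without APP_SC replicate 2 it was 0.54, and without WT_SC replicate 4 it was 0.56. The smallest unadjusted p of a member in any of the 3 comparisons was 0.349, for Folr1 here. With 2 libraries of APP_SC, 1 high and 1 low for every member, this difference is the least precise of the 3.

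**Figure D4:**
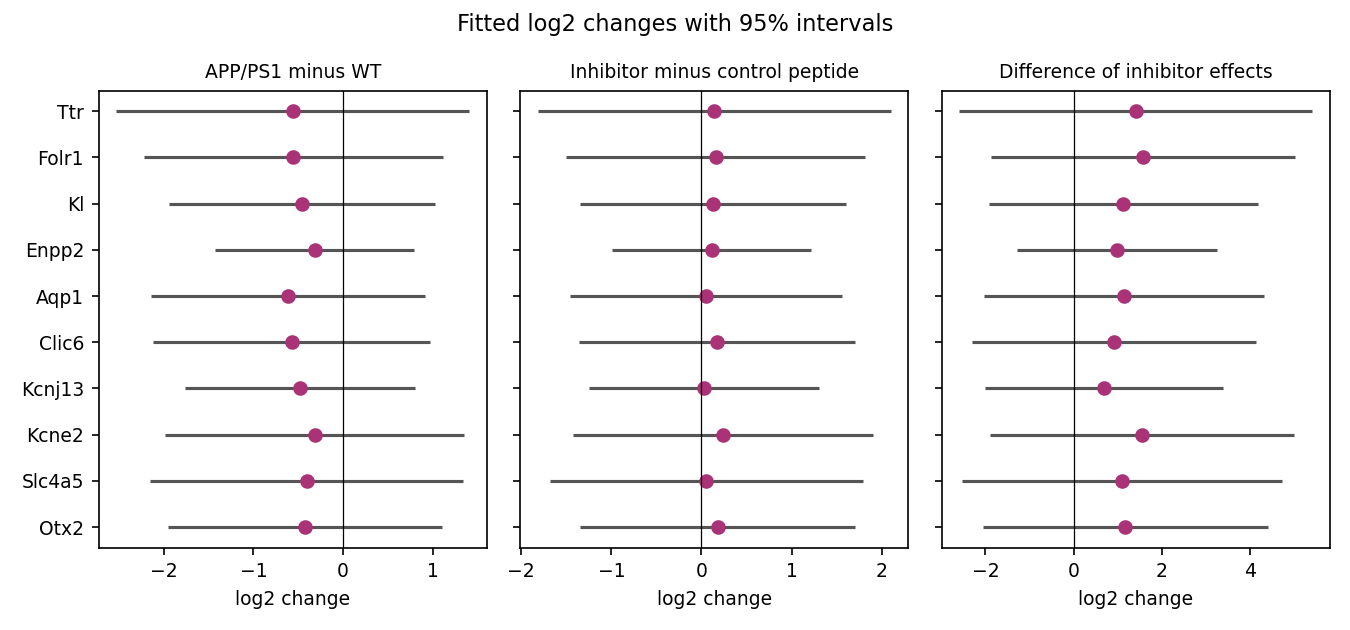
Fitted log2 changes (points) with 95% intervals (lines) of the 10 genes from edgeR, for APP/PS1 minus WT, inhibitor minus control peptide, and the difference of the inhibitor effects (APP/PS1 minus WT), each panel with its own axis range. Every interval crosses zero, and the widest are those of Ttr.

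The spread within groups, which sets the width of these intervals, was large for the members. The biological coefficient of variation fitted by edgeR was 1.10 for Ttr, 1.08 for Slc4a5, 1.06 for Kcne2 and 1.03 for Folr1, against a median of 0.162 over all genes tested. It was lowest among the members for Enpp2, at 0.670, a value reached by 0.752% of genes. The SD of log2 CPM over the 17 libraries was 2.52 for Ttr and 1.16 for Enpp2, and the median over all genes was 0.247.

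The 32 other choroid plexus genes gave the same picture as the members in the tests. None was called by edgeR in any comparison, and 30 of the 32 had a log2 change below zero for genotype (median -0.323), 26 above zero for inhibitor (0.063) and 31 above zero for the difference of effects (0.731). Over all genes tested, 50.7%, 51.4% and 49.3% had a log2 change above zero in the same comparisons. None of the 32 was called without the 8 libraries either, and 13 were below zero for genotype (median 0.039), 14 above zero for inhibitor (-0.024) and 32 above zero for the difference of effects (1.04). Since these genes vary together over the libraries, the counts of direction are not independent observations.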

How the data were processed

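RNA was sequenced from isolated cortical microvessels. The deposited values are unscaled counts for each Ensembl ID: whole numbers, with a different sum in each library. The submitters' processing notes name cutadapt, STAR, HTSeq and DESeq2 and the builds GRCh37 and mm10, without versions or roles. Counting of strand and of reads with several matches is not given in the sources used here. Of the table's columns, 20 matched no sample and were not used. Symbols, positions and exon lengths are from GENCODE vM21, which named 42250 of 42687 IDs. Libraries were grouped by the labels' genotype and treatment, and replicate numbers follow the order of the samples and pair nothing. In 31 pairs of libraries within groups, 0 were identical, and the chi-square per degree of freedom was 5.37 to 91.4. Each library was treated as 1 replicate, but these values cannot show that libraries come from separate mice.

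Genes were filtered with filterByExpr, scaled by TMM and tested with edgeR 4.0.16 (quasi-likelihood F test, Benjamini-Hochberg over 18753 genes, threshold 0.05, all 17 libraries). An additive model gave genotype and inhibitor, and a model with their interaction gave the third comparison. The labels give no batch, so no covariate was used. SE and 95% intervals were computed from estimate and F. The fit was tested on simulated data. Log2 CPM used a prior count of 2. Ttr was also compared by exact permutation over 19448 arrangements, two-sided, with no adjustment for the other factor. Alternatives were DESeq2 1.42.0, its size factors in edgeR, no filter, robust fitting, prior count 0.5, library totals alone, and each library left out. The settings without libraries holding both Xist (over 100 CPM) and Y-linked reads (over 5 CPM), and within libraries above or below the gap in Ttr, were chosen after seeing the data. The members and the 14 gene lists were chosen with earlier results of these data known. Named genes are the members, the 10 genes most correlated with Ttr, and the 4 most abundant and any called genes of each list, except where said otherwise, and some genes that this rule selects are not reported here. Depth was 7316503 to 17862965 counts.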

Additional observations from a re-analysis of the deposited data

How the results depend on the processing

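In each of the alternatives run, 0 of the 10 genes were called in any of the 3 comparisons, and the smallest adjusted p of a member was 0.756. All the genes called for genotype numbered 110, 175 with DESeq2, 70 without APP_SC replicate 2, 81 without APP_NOX2 replicate 2 or WT_NOX2 replicate 5, and 6 without the 8 libraries holding both Xist and Y-linked reads, a setting that leaves 9 libraries. Leaving out 1 library in turn turned the direction of the fitted inhibitor change in 51 of 170 fits, with ranges of -0.20 to 0.74 for Ttr, -0.17 to 0.72 for Folr1, -0.18 to 0.65 for Kl, -0.13 to 0.54 for Enpp2, -0.20 to 0.64 for Aqp1, -0.11 to 0.68 for Clic6, -0.20 to 0.56 for Kcnj13, -0.11 to 0.90 for Kcne2, -0.26 to 0.70 for Slc4a5 and -0.11 to 0.74 for Otx2. The genotype change ranged from -0.93 (without APP_NOX2 replicate 4) to -0.22 (without APP_SC replicate 2) for Ttr and from -0.606 to 0.032 for Kcne2. The difference of inhibitor effects ranged from 0.54 to 3.93 for Ttr, 0.76 to 4.14 for Folr1, 0.64 to 5.66 for Kcne2 and -0.13 to 1.92 for Kcnj13, with the highest value of Ttr, Folr1 and Kcne2 without APP_SC replicate 1. The difference of mean log2 CPM of Ttr by genotype ranged from -0.317 to 0.823, and it was below zero only without WT_SC replicate 1 (exact permutation p = 0.769). The difference by inhibitor ranged from 0.0977, without the same library, to 1.67.

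Without the 8 libraries, the genotype change was 0.10 for Kl, 0.13 for Enpp2, 0.24 for Kcne2, 0.16 for Slc4a5 and 0.16 for Otx2, and the inhibitor change was -0.056 for Ttr, -0.0311 for Kl, -0.009 for Enpp2, -0.0548 for Aqp1, -0.15 for Kcnj13 and -0.16 for Slc4a5. For Ttr the exact permutation test there gave 1.58 for genotype (p = 0.643) and 2.03 for inhibitor (p = 0.476). The cause was not tested. Correlations with Ttr stayed between 0.912 and 0.998 over the planned settings. Low counts limit Otx2, Kcne2 and Folr1, with 4 to 6 counts in their lowest libraries, and Slc4a5, with 8. No paired analysis was possible because the labels give no replicate numbers shared between groups.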
